A study of Mus musculus with 9 samples.

Results

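The interferon response and antigen presentation genes described here were 55 of the 18329 genes of a deposited expression table, chosen by name. They were the H2 genes of the mouse major histocompatibility complex, the Ifit, Ifitm, Ifi, Oasl, Irf and Gbp families, Stat2, Tap1, Tap2, the immunoproteasome subunits Psmb9 and Psmb10, B2m, Tapbp, Bst2, Isg15, Usp18, Rsad2, Ciita and the 4 chains of the interferon receptors. Irf8 was not part of the set, and Cd74 and Nlrc5 were not analysed here. The rule used names only and no measured value, but it was set with earlier results of these data known. The labels name the source of the RNA as neuroglial progenitors of the third ventricular zone, a germinal layer of the brain. Markers of other cell types were also present, as given below. The animals were Nestin-CFPnuc mice on a C57/BL6 background at postnatal day 1. These mice carry a nuclear cyan fluorescent protein (CFP) driven by the promoter of Nestin, an intermediate filament gene of neural progenitors. No group was treated, and every group carried the reporter. Sorting used CFP fluorescence and CD133, a membrane glycoprotein whose gene is Prom1, and gave populations labelled CD133+, Nestin+ and CD133+Nestin+, with 3 libraries each. The labels do not say that the single-marker populations lacked the other marker, and they give each library a sort number equal to its passage number (1, 2 or 3). Nothing in them says that libraries came from separate animals, and a p-value here sets a difference against the spread of these libraries, possibly a technical one.

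Class I molecules are a heavy chain paired with beta-2-microglobulin and display peptides made by the proteasome, carried by the TAP transporter and loaded with tapasin. Class II molecules display peptides from endosomes and are at home in microglia, macrophages and other professional presenting cells. Interferons bind paired receptors, and a complex that holds STAT2 and IRF9 then enters the nucleus and switches on antiviral genes through an element called the interferon-stimulated response element (ISRE). In the brain most resting cells hold these genes low, while microglia and the vessel wall are known for higher levels.

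The promoters are shown because the ISRE can be looked for without regard to the measured values. Only exact matches to a short core were counted, so elements with other letters would be missed. The core searched was GAAA, any 2 bases and GAAA again, on both strands, in the 250 bases before the transcription start of RefSeq models (build GRCm38.p6), and 45 of the 55 genes had such a window. The core was found in 13 of those 45 genes (28.9%) and in 322 of the 11210 genes of the table with a window (2.87%). Most genes of the set with a window thus lacked it. The set was chosen by names of interferon-related genes, so its higher share is no independent result. A second word, TTCNNNGAA, the core of elements bound by STAT dimers, was found in 8 of 45 (17.8%) against 6.91% of all genes; both words can overlap. The stretches below, read 5′ to 3′ on the strand of the gene with the core in capitals, are from 4 genes with less RNA in Nestin+ cells (Isg15, Bst2, Gbp7, B2m) and 3 that did not pass that test (Ifit3, Rsad2, H2-T22). A core on the opposite strand reads TTTC, any 2 bases and TTTC.
Isg15 (chr4:156200837-156200936, minus strand): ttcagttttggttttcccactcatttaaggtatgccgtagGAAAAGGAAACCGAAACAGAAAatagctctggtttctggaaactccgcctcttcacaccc
Bst2 (chr8:71537546-71537645, minus strand): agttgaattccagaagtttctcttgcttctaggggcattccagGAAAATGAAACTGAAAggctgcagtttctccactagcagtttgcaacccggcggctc
Gbp7 (chr3:142530236-142530335, plus strand): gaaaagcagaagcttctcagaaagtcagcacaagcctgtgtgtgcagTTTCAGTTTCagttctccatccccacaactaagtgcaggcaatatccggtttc
B2m (chr2:122147502-122147601, plus strand): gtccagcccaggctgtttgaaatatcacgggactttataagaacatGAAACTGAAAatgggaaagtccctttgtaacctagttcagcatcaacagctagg
Ifit3 (chr19:34583344-34583443, plus strand): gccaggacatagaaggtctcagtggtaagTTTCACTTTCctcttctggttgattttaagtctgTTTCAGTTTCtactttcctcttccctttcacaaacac
Rsad2 (chr12:26456519-26456618, minus strand): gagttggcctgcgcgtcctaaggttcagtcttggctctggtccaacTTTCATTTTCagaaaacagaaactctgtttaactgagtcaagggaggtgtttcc
H2-T22 (chr17:36042880-36042960, minus strand): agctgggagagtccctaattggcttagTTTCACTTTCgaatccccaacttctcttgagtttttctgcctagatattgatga
Isg15 held 3 overlapping cores, the outermost beginning 78 bases before its start, and Bst2 held 2 overlapping cores. Ifit3 held 2 separate cores, and the same 100 bases stand before its neighbour Ifit3b. Among genes with a window, 6 of the 16 that passed the test as lower in Nestin+ than in CD133+ cells held the core (37.5%), as did 7 of the other 29 (24.1%). The other genes include many that were lower without passing, and Ifit3 and Ifit3b count separately among them. These matches describe letters in a window and show no binding.

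Values were taken as CPM, reads of a gene scaled to the total of its library, a unit inferred from the numbers. A single read was worth 0.0286 to 0.0344 CPM and 3 reads 0.0857 to 0.103 CPM, so a level near 0.1 CPM rests on a few reads. Of the 55 genes, 49 reached 1 CPM in at least 3 libraries and were tested among 16143 genes; Ciita, H2-Bl, H2-Q7, H2-T10, Ifitm7 and Irf4 stayed under that level. Prom1 was at 146 to 182 CPM in CD133+, 39.3 to 58.1 CPM in Nestin+ and 116 to 181 CPM in CD133+Nestin+ libraries, and Nes at 39.5 to 57.3, 157 to 195 and 172 to 212 CPM. Both sort markers were thus present in every population. CD133+Nestin+ replicate 2 stood apart from the other 8 libraries on the second principal component of all tested genes (-108, the others -19.3 to 57.1). It was the lowest library for 17 of the 49 genes (34.7%), close to its share over all genes (33.2%), and the highest for 11 (22.4%, all genes 17.1%).

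The set stood highest in CD133+ cells. A CD133+ library held the highest value for 33 of the 49 tested genes (67.3%), against 33.9% of all tested genes. CD133+ replicate 3 alone was highest for 22 (44.9%), against 6.54% of all genes. CD133+ replicate 1 was highest for 10 (20.4%, all genes 10.6%), but CD133+ replicate 2 for only 1 (2.04%, all genes 16.8%). In the F test over the 3 populations 15 of the 49 genes passed (30.6%), against 9.5% of all genes tested. The 5 genes with the highest mean level per kilobase of exon in CD133+ cells were B2m (314 CPM per kb), Ifitm2 (184), Ifitm3 (90.6), H2-D1 (53.6) and Ifngr1 (44.5).

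**Figure D1:**
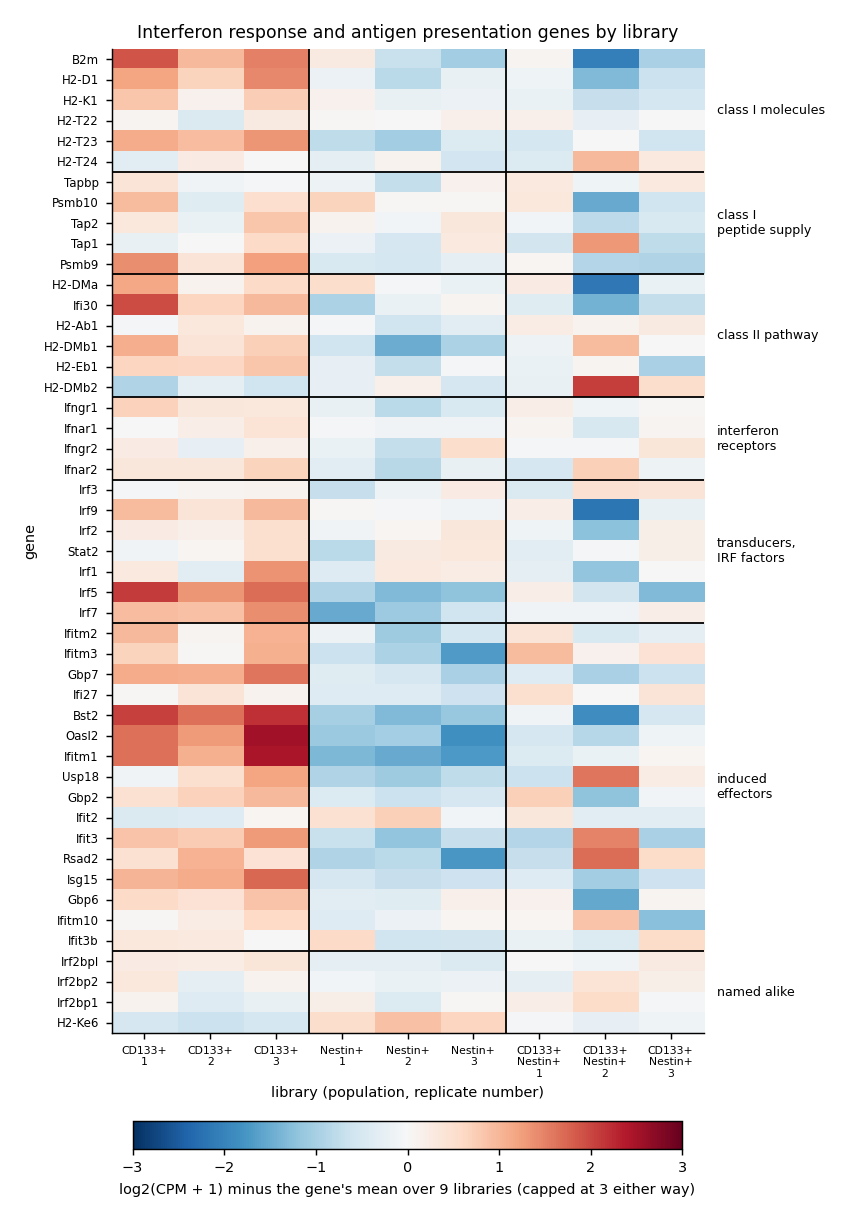
Heat map of 48 of the 49 tested genes (rows, grouped by role and ordered by mean level in CD133+ cells) in the 9 libraries (columns); color is log2(CPM + 1) minus the gene's mean over the 9 libraries. Red fields gather in the 3 CD133+ columns for Bst2, Oasl2, Ifitm1 and Irf5, and CD133+Nestin+ replicate 2 departs from its group in both directions, low for Irf9 and H2-DMa and high for H2-DMb2, Usp18 and Rsad2.

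Nestin+ cells had less RNA of 16 genes of the set than CD133+ cells and more of 1. The lower genes included the effectors Ifitm1, Oasl2, Bst2, Isg15 and Gbp7, the factors Irf5 and Irf7, and the class I genes B2m, H2-D1 and H2-T23. Isg15 is counted although it entered the test only through its level in CD133+ libraries. The differences ran from -3.26 ± 0.38 (SE, n = 3 per group) for Ifitm1 to -0.94 ± 0.24 for Ifngr1, on the scale of log2(CPM + 1), which understates the change of genes near 1 CPM. The 16 lower genes were 32.7% of the 49 tested, where 9.42% of all tested genes were lower, and the 1 higher gene was 2.04%, where 2.45% of all genes were higher (limma, adjusted p at or under 0.05). The median difference was -0.73 over the 49 genes and -0.0192 over all tested genes, and it was -0.608 over all 55 genes without the level filter. In 29 of the 49 genes (59.2%) all 3 Nestin+ libraries lay below all 3 CD133+ libraries, against 21.1% of all genes, and in H2-Ke6 alone all 3 lay above (2.04%, all genes 11.8%). With a block for the replicate number, 18 genes of the set were lower (36.7%, all genes 13.1%) and 1 higher (all genes 6.06%). The count of passing genes fell from 17 to 9 without CD133+ replicate 3, to 9 without Nestin+ replicate 2 and to 10 without CD133+ replicate 1. The share of all genes passing in those fits is not given, so these counts cannot show whether the excess of the set changed.

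Markers of other cell types moved with the same contrast. The 13 microglial and macrophage markers in the table summed to 1404 to 3781 CPM in CD133+ libraries and to 48.0 to 150 CPM in Nestin+ libraries, and all 13 were lower in Nestin+ cells. The 5 endothelial markers summed to 451 to 887 CPM against 15.4 to 25.5 CPM, and all 5 were lower. Csf1r, the receptor that microglia depend on, was at 18.7, 6.87 and 9.94 CPM in Nestin+ replicates 1, 2 and 3, and Cldn5, a tight junction gene of brain endothelium, at 1.03, 0.13 and 0.062 CPM, the last under the worth of 3 reads. No marker of either list was at 0. Of the other lists, 7 of 7 ependymal markers, 5 of 5 red blood markers and 5 of 7 mural and fibroblast markers were lower in Nestin+ cells, and 1 mural marker, Cspg4, was higher. Higher too were 4 of 5 oligodendrocyte precursor markers, 2 of 4 neuronal markers and 2 of 8 progenitor markers (Nes and Rax), with 1 progenitor marker, Prom1, lower. Nes and Prom1 are the genes behind the sort markers, so the sort itself set their direction. The lymphoid and dendritic markers were not analysed here. The part of these cells in the differences of the set was not tested. In such bulk libraries fewer cells of a type and less RNA per cell cannot be told apart.

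The size of the drop varied widely within the set. The mean of the summed microglial markers in Nestin+ cells was 3.69% of that in CD133+ cells, and that of the endothelial markers 3.09%. For the ependymal and the red blood markers it was 12.1%, and for the mural and fibroblast markers 23.4%. Cspg4 alone made up most of the mural and fibroblast sum in Nestin+ cells and stood at 496% of its CD133+ mean. The 5 markers of that list that passed as lower stood at 0.231% (Dcn) to 19.3% (Col1a2), and Acta2, without a call, at 58.8%. The 23.4% thus does not give the drop of the lower markers. Ifitm1 stood at 2.86%, Oasl2 at 5.71%, Irf5 at 6.57% and Bst2 at 7.37%. Isg15 was at 11.3%, B2m at 27%, H2-D1 at 34.7% and Ifngr1 at 52.2%. Ifnar1 was at 81.2% and H2-T22 at 105%.

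**Figure D2:**
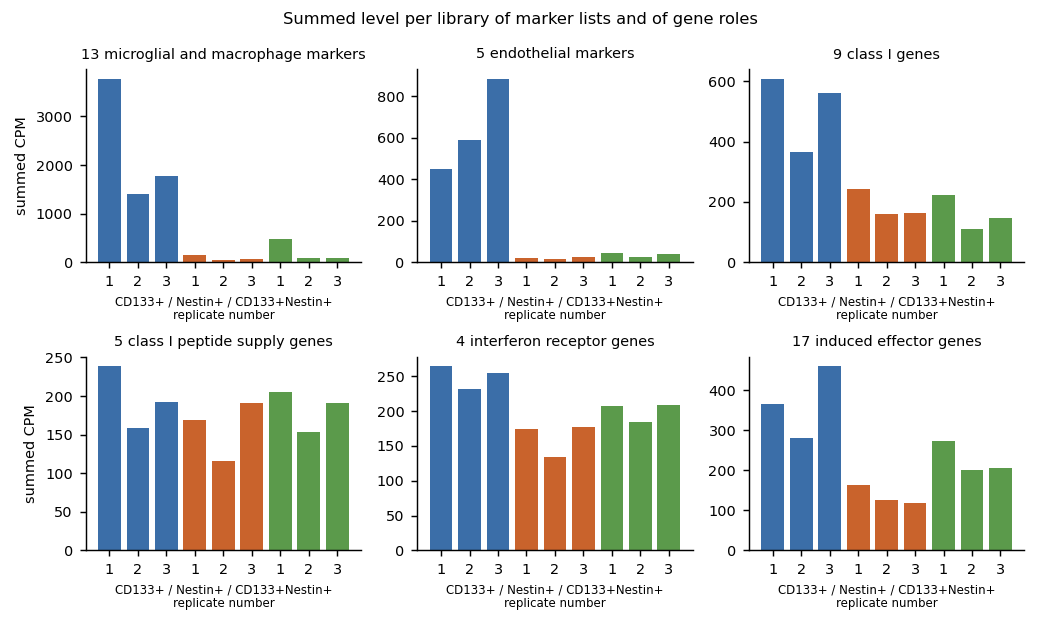
Summed CPM per library of the microglial and macrophage markers, the endothelial markers and 4 roles of the set; each bar is 1 library, blue for CD133+, orange for Nestin+ and green for CD133+Nestin+, numbered by replicate. The marker sums drop to 48.0 to 150 CPM (microglial) and 15.4 to 25.5 CPM (endothelial) in Nestin+ libraries. The summed interferon receptors lie at 232 to 264 CPM in CD133+, 134 to 177 CPM in Nestin+ and 184 to 208 CPM in CD133+Nestin+ libraries, with no overlap.

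Among the class I molecules, 3 of 6 tested genes had less RNA in Nestin+ than in CD133+ cells and none had more. For this count and those of the roles below, 9.42% of all tested genes were lower and 2.45% higher. B2m, the light chain shared by class I molecules, was at 354, 185 and 271 CPM in CD133+ replicates 1 to 3, at 115, 58.8 and 45.4 CPM in Nestin+ and at 100, 22.2 and 48.0 CPM in CD133+Nestin+ libraries. The lowest CD133+ library lay above the highest of both other groups, whose own ranges overlapped. The difference of Nestin+ from CD133+ was -1.94 ± 0.51 (adjusted p = 0.0307). H2-D1, a classical heavy chain, was at 143, 99.8 and 172 CPM in CD133+, 55.2, 35.4 and 53.2 CPM in Nestin+ and 56.7, 24.2 and 39.7 CPM in CD133+Nestin+ libraries. Its groups were also apart, with a difference of -1.50 ± 0.34 (adjusted p = 0.015). H2-T23, the Qa-1 heavy chain read by receptors of natural killer cells, was at 14.6, 12.7 and 17.1 CPM in CD133+, 3.27, 2.49 and 4.44 CPM in Nestin+ and 4.01, 6.14 and 3.79 CPM in CD133+Nestin+ libraries. It differed by -1.86 ± 0.32 (adjusted p = 0.00303), and this call remained without any 1 of the 9 libraries.

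H2-K1, the other classical heavy chain, was at 71.1, 43.1 and 66.7 CPM in CD133+, 43.1, 34.0 and 34.9 CPM in Nestin+ and 34.2, 24 and 27.2 CPM in CD133+Nestin+ libraries. The CD133+ and Nestin+ ranges met at 43.1 CPM, and of the fits run the gene passed only in those with the replicate number as a block (adjusted p = 0.0411). H2-T22, a non-classical heavy chain, was at 18.9, 12.8 and 21.6 CPM in CD133+, 18.1, 18.1 and 19.8 CPM in Nestin+ and 19.8, 14.8 and 17.9 CPM in CD133+Nestin+ libraries, and the 3 ranges overlapped. H2-T24 was also without a call, at means of 8.31, 6.97 and 11.2 CPM in CD133+, Nestin+ and CD133+Nestin+ cells. H2-Q7, H2-T10 and H2-Bl had means under 1 CPM in every group. Of the 50-base words in the transcripts of H2-T22, 53.5% also occur in another gene, mostly H2-T10, so its reads may be shared; for H2-D1 the share was 12.8%, for H2-K1 9.63% and for B2m 0%. The B2m call was lost without any 1 of the 3 CD133+ libraries, Nestin+ replicate 2 or Nestin+ replicate 3 (adjusted p = 0.0573 to 0.126), and that of H2-D1 without CD133+ replicate 3 or Nestin+ replicate 2 (0.0693 and 0.0749). These fits had no block. With the replicate block and all 9 libraries the limma adjusted p was 0.00149 for B2m and 0.000846 for H2-D1.

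**Figure D3:**
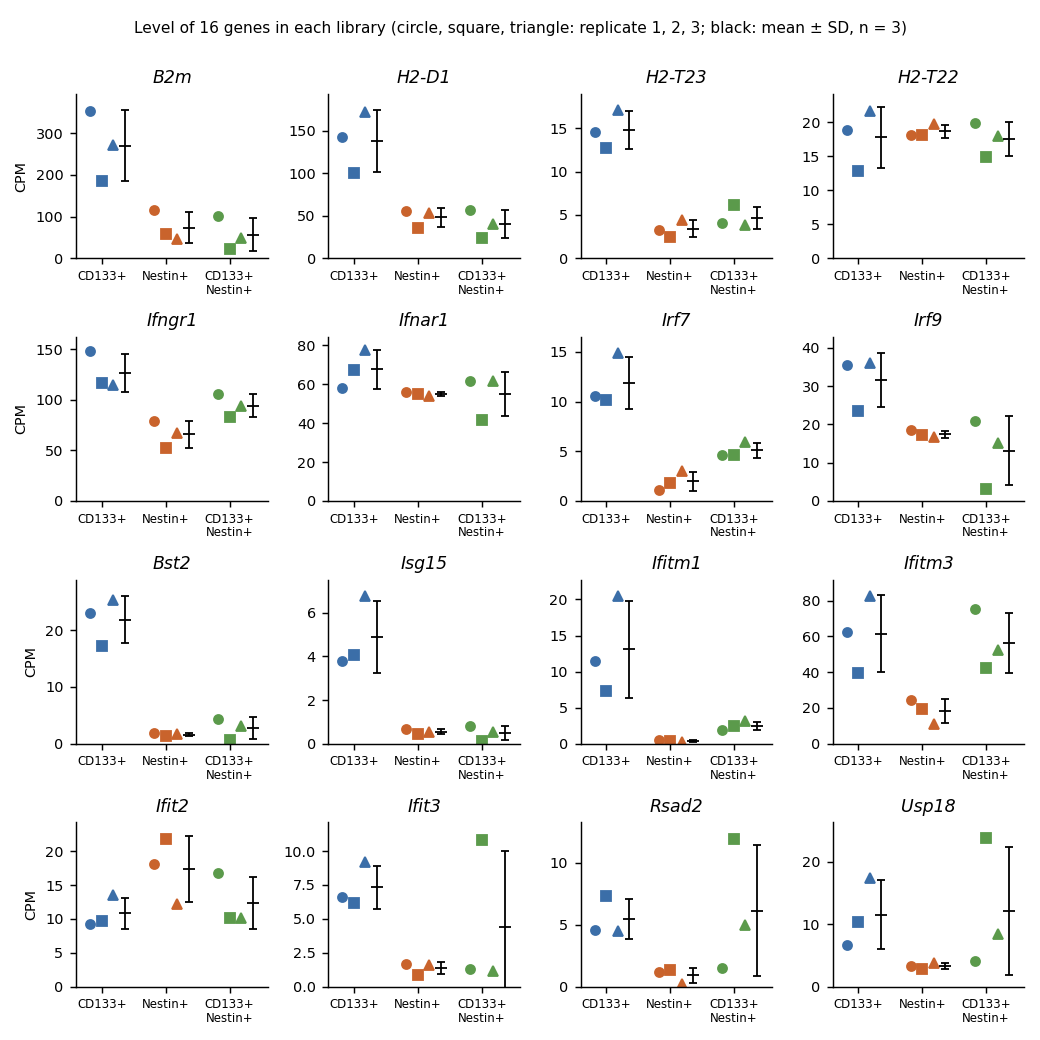
CPM of 16 genes of the set in each library, by population; points are libraries, and the black bar is the mean ± SD (n = 3), drawn only above 0. B2m, H2-D1, H2-T23, Irf7, Bst2, Isg15 and Ifitm1 lie higher in all 3 CD133+ libraries than in the other 6, Ifitm3 is low in the Nestin+ libraries alone, and Ifit3, Rsad2 and Usp18 have their highest value in CD133+Nestin+ replicate 2.

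Of the 5 genes that supply peptides to class I molecules, 1 was lower in Nestin+ than in CD133+ cells. Psmb9, an immunoproteasome subunit, was at 5.87, 2.42 and 5.19 CPM in CD133+, 0.90, 0.84 and 1.13 CPM in Nestin+ and 1.74, 0.43 and 0.40 CPM in CD133+Nestin+ libraries. Its CD133+ range lay above both others, and Nestin+ differed by -1.43 ± 0.37 (adjusted p = 0.0301). Leaving out CD133+ replicate 1 or 3 or any 1 Nestin+ library ended the call (adjusted p = 0.077 to 0.115), as did a pseudocount of 0.1 and quantile normalization (0.0682 and 0.0561). Psmb9 and Tap1 lie head to head and overlap on opposite strands, and strand use in the counting was not known here. Tapbp, which bridges TAP and class I molecules, was at 182, 129 and 137 CPM in CD133+, 126, 84.4 and 153 CPM in Nestin+ and 170, 127 and 171 CPM in CD133+Nestin+ libraries, with overlapping ranges. Tap1, a chain of the transporter, was at 4.52, 5.55 and 8.65 CPM in CD133+, 4.74, 3.52 and 6.92 CPM in Nestin+ and 3.40, 15.0 and 2.82 CPM in CD133+Nestin+ libraries, where replicate 2 was far above its companions. Its partner Tap2 and the immunoproteasome subunit Psmb10 did not pass either. The means of Tap2 were 13.5, 11.2 and 7.41 CPM in CD133+, Nestin+ and CD133+Nestin+ cells, and those of Psmb10 22.9, 20.2 and 12.2 CPM, so CD133+Nestin+ cells stood at 55.1% and 53% of the CD133+ mean.

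The class II genes were low in every population, and 2 of 6 tested fell from CD133+ to Nestin+ cells. H2-DMb1, a chain of the H2-DM peptide editor, was at 5.64, 3.05 and 4.09 CPM in CD133+, 1.05, 0.10 and 0.60 CPM in Nestin+ and 1.81, 4.95 and 2.14 CPM in CD133+Nestin+ libraries. CD133+ and Nestin+ were apart and differed by -1.74 ± 0.39 (adjusted p = 0.0134). Without CD133+ replicate 1 or Nestin+ replicate 2 the adjusted p was 0.0504 and 0.0729. Ifi30, a lysosomal thiol reductase that unfolds antigens, was at 15.8, 5.78 and 7.51 CPM in CD133+, 1.24, 2.76 and 3.61 CPM in Nestin+ and 2.38, 0.61 and 1.63 CPM in CD133+Nestin+ libraries. It differed by -1.55 ± 0.45 in Nestin+ cells (adjusted p = 0.0479), and the call ended without any 1 of the CD133+ or Nestin+ libraries or CD133+Nestin+ replicate 3 (0.0641 to 0.161), and under 5 other settings of pseudocount, filter and scaling (0.0569 to 0.0864). H2-Ab1, a class II beta chain, was at 4.20, 5.72 and 4.78 CPM in CD133+, 4.19, 2.57 and 3.36 CPM in Nestin+ and 5.36, 4.84 and 5.57 CPM in CD133+Nestin+ libraries, all below 6 CPM. H2-Eb1, H2-DMa and H2-DMb2 did not pass, and 22.7% of the 50-base words of H2-DMb1 also lie in H2-DMb2, as do 21.2% of those of H2-DMb2 in H2-DMb1. Ciita, the regulator of class II transcription, was at 0.13 to 0.49 CPM in CD133+, 0.41 to 1.96 CPM in Nestin+ and 0.18 to 0.80 CPM in CD133+Nestin+ libraries.

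Of the 4 receptor chains, 1 was lower in Nestin+ cells. Ifngr1, the ligand-binding chain of the interferon-gamma receptor, was at 149, 117 and 115 CPM in CD133+, 79.0, 52.2 and 67.0 CPM in Nestin+ and 106, 83.1 and 93.6 CPM in CD133+Nestin+ libraries. The 3 ranges did not overlap, in the order CD133+, CD133+Nestin+, Nestin+, and Nestin+ differed from CD133+ by -0.94 ± 0.24 (adjusted p = 0.0281). Median centring of the libraries raised the adjusted p to 0.069, and leaving out any 1 CD133+ library, Nestin+ replicate 2 or Nestin+ replicate 3 to 0.0679 to 0.122. Its partner Ifngr2 was at 32.6, 22.8 and 30.5 CPM in CD133+, 23.6, 16.4 and 39.7 CPM in Nestin+ and 26.2, 26.4 and 35.7 CPM in CD133+Nestin+ libraries, with overlapping ranges. Ifnar1, a chain of the type I receptor, was at 58.1, 67.2 and 77.9 CPM in CD133+, 56.1, 54.8 and 54.1 CPM in Nestin+ and 61.9, 41.8 and 61.6 CPM in CD133+Nestin+ libraries. Ifnar2, the other chain, was at 25, 24.9 and 31.6 CPM in CD133+, 15.1, 10.6 and 16.7 CPM in Nestin+ and 13.4, 32.6 and 17.3 CPM in CD133+Nestin+ libraries. For both chains the Nestin+ libraries lay below all CD133+ libraries, and neither passed the test.

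Of 8 tested signal transducers and interferon regulatory factors (IRFs), Irf5 and Irf7 were lower in Nestin+ cells, and both calls remained without any 1 of the 9 libraries. Irf5, which acts below Toll-like receptors, was at 15.7, 8.91 and 11.5 CPM in CD133+, 1.11, 0.57 and 0.70 CPM in Nestin+ and 3.51, 1.70 and 0.57 CPM in CD133+Nestin+ libraries. It differed by -2.84 ± 0.41 (adjusted p = 0.00118), although 11% of its 50-base words also lie in another gene, Tnpo3. Irf7, which amplifies type I interferon production, was at 10.6, 10.1 and 14.9 CPM in CD133+, 1.13, 1.86 and 3.02 CPM in Nestin+ and 4.65, 4.61 and 5.98 CPM in CD133+Nestin+ libraries. Its 3 ranges did not overlap, with CD133+Nestin+ in between, and Nestin+ differed by -2.13 ± 0.34 (adjusted p = 0.00194).

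Stat2 and Irf9, which act together at the ISRE, did not pass. Stat2 was at 16.9, 18.8 and 25.7 CPM in CD133+, 9.82, 22.1 and 22.9 CPM in Nestin+ and 14.0, 17.6 and 20.6 CPM in CD133+Nestin+ libraries, with overlapping ranges. Irf9 was at 35.5, 23.6 and 36 CPM in CD133+, 18.4, 17.3 and 16.6 CPM in Nestin+ and 20.9, 3.25 and 15.3 CPM in CD133+Nestin+ libraries, with every CD133+ library above every other library. Irf1, an early interferon-gamma target, was at 16, 10.2 and 34.6 CPM in CD133+, 9.60, 16.1 and 15.3 CPM in Nestin+ and 10.5, 5.10 and 13.1 CPM in CD133+Nestin+ libraries. Irf3, the factor that virus sensors activate, was at 33.1, 36 and 36.5 CPM in CD133+, 20.5, 30.2 and 40.6 CPM in Nestin+ and 24.6, 46.8 and 44.8 CPM in CD133+Nestin+ libraries. Both overlapped across all groups.

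The effectors, the largest role, held the most calls, with 7 of 16 tested genes lower in Nestin+ than in CD133+ cells and none higher. By share they did not exceed the class I molecules (3 of 6). Ifitm1, a membrane protein that blocks virus entry, was at 11.5, 7.31 and 20.5 CPM in CD133+, 0.55, 0.39 and 0.19 CPM in Nestin+ and 1.96, 2.43 and 3.09 CPM in CD133+Nestin+ libraries. Its 3 ranges were apart, and the difference of -3.26 ± 0.38 (adjusted p = 0.000344) was the largest of the set. Oasl2, of the oligoadenylate synthetase family, was at 14.2, 10.7 and 26.6 CPM in CD133+, 1.24, 1.37 and 0.34 CPM in Nestin+ and 2.39, 1.66 and 3.44 CPM in CD133+Nestin+ libraries, a difference of -3.15 ± 0.41 (adjusted p = 0.000663). Bst2, or tetherin, which holds budding virus at the cell surface, was at 23, 17.2 and 25.3 CPM in CD133+, 1.89, 1.30 and 1.63 CPM in Nestin+ and 4.41, 0.60 and 3.09 CPM in CD133+Nestin+ libraries, a difference of -3.12 ± 0.44 (adjusted p = 0.00101). Isg15, a ubiquitin-like protein, was at 3.79, 4.07 and 6.75 CPM in CD133+, 0.67, 0.46 and 0.52 CPM in Nestin+ and 0.81, 0.14 and 0.54 CPM in CD133+Nestin+ libraries. No library outside CD133+ reached 1 CPM, and Nestin+ differed by -1.89 ± 0.31 (adjusted p = 0.00251). Gbp7, a guanylate-binding GTPase, was at 35.2, 34.7 and 50.2 CPM in CD133+, 12.0, 10.9 and 7.52 CPM in Nestin+ and 11.8, 7.49 and 9.67 CPM in CD133+Nestin+ libraries, a difference of -1.88 ± 0.29 (adjusted p = 0.00184). The calls of Ifitm1, Oasl2, Bst2 and Gbp7 remained without any 1 of the 9 libraries. Isg15 passed the level filter through the 3 CD133+ libraries alone, so no fit without 1 of them could test its call. That way of passing also fixed the direction of its test in advance, and its p-value is no independent support for a lower level. The gene remains in the counts of lower genes. In the fit without a level filter its call stood.

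Ifitm2 and Ifitm3, relatives of Ifitm1, were the effectors with the highest level per kilobase in each population. Ifitm3 was at 62.4, 39.5 and 82.5 CPM in CD133+, 24.3, 19.5 and 11.3 CPM in Nestin+ and 75.0, 42.2 and 52.2 CPM in CD133+Nestin+ libraries. Nestin+ lay below all other libraries and differed from CD133+ by -1.69 ± 0.36 (adjusted p = 0.0105; 0.0523 without CD133+ replicate 3). Ifitm2 was at 139, 74.9 and 146 CPM in CD133+, 63.5, 33.0 and 48.1 CPM in Nestin+ and 92.0, 51.2 and 57.0 CPM in CD133+Nestin+ libraries, with a difference of -1.29 ± 0.35 (adjusted p = 0.0358). That call ended under median centring (0.0618) and without CD133+ replicate 1 or 3, Nestin+ replicate 2 or 3 or CD133+Nestin+ replicate 3 (0.0536 to 0.153). Of its 50-base words 48.5% occur in another gene, Gm45717 above all.

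The remaining effectors did not pass, and several were high in CD133+Nestin+ replicate 2. Usp18, which removes ISG15 and dampens the type I receptor, was at 6.59, 10.4 and 17.5 CPM in CD133+, 3.31, 2.85 and 3.78 CPM in Nestin+ and 4.16, 23.8 and 8.46 CPM in CD133+Nestin+ libraries. Rsad2, or viperin, was at 4.60, 7.33 and 4.51 CPM in CD133+, 1.17, 1.34 and 0.22 CPM in Nestin+ and 1.53, 11.9 and 4.96 CPM in CD133+Nestin+ libraries. Rsad2 passed in the fit with the replicate block, lower in Nestin+ than in CD133+ cells (adjusted p = 0.0172), and not without it (0.0545). Ifit3, which binds viral RNA, was at 6.63, 6.16 and 9.16 CPM in CD133+, 1.65, 0.85 and 1.58 CPM in Nestin+ and 1.27, 10.8 and 1.12 CPM in CD133+Nestin+ libraries. It shares 51.2% of its 50-base words with Ifit3b. For these 3 genes CD133+ lay above Nestin+ in every library, and CD133+Nestin+ replicate 2 lay above all CD133+ libraries. Ifit2, of the same family, was at 9.30, 9.76 and 13.5 CPM in CD133+, 18.1, 21.8 and 12.2 CPM in Nestin+ and 16.8, 10.1 and 10.2 CPM in CD133+Nestin+ libraries, with its highest values in Nestin+ cells and overlapping ranges.

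The name rule also took in 4 genes that only share a prefix. H2-Ke6, also called Hsd17b8, is a short-chain dehydrogenase encoded within the H2 region and no presenting molecule. It was at 6.38, 5.63 and 6.28 CPM in CD133+, 14.0, 18.3 and 15.4 CPM in Nestin+ and 9.22, 7.81 and 8.5 CPM in CD133+Nestin+ libraries, and it was the 1 gene of the set that was higher in Nestin+ than in CD133+ cells (+1.25 ± 0.26, adjusted p = 0.01). Its 3 ranges were apart, in the order Nestin+, CD133+Nestin+, CD133+; without Nestin+ replicate 2 the adjusted p was 0.0575, and 70.5% of its 50-base words lie also in Gm20427. The IRF2-binding proteins Irf2bp1, Irf2bp2 and Irf2bpl, transcriptional corepressors, did not pass.

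**Figure D4:**
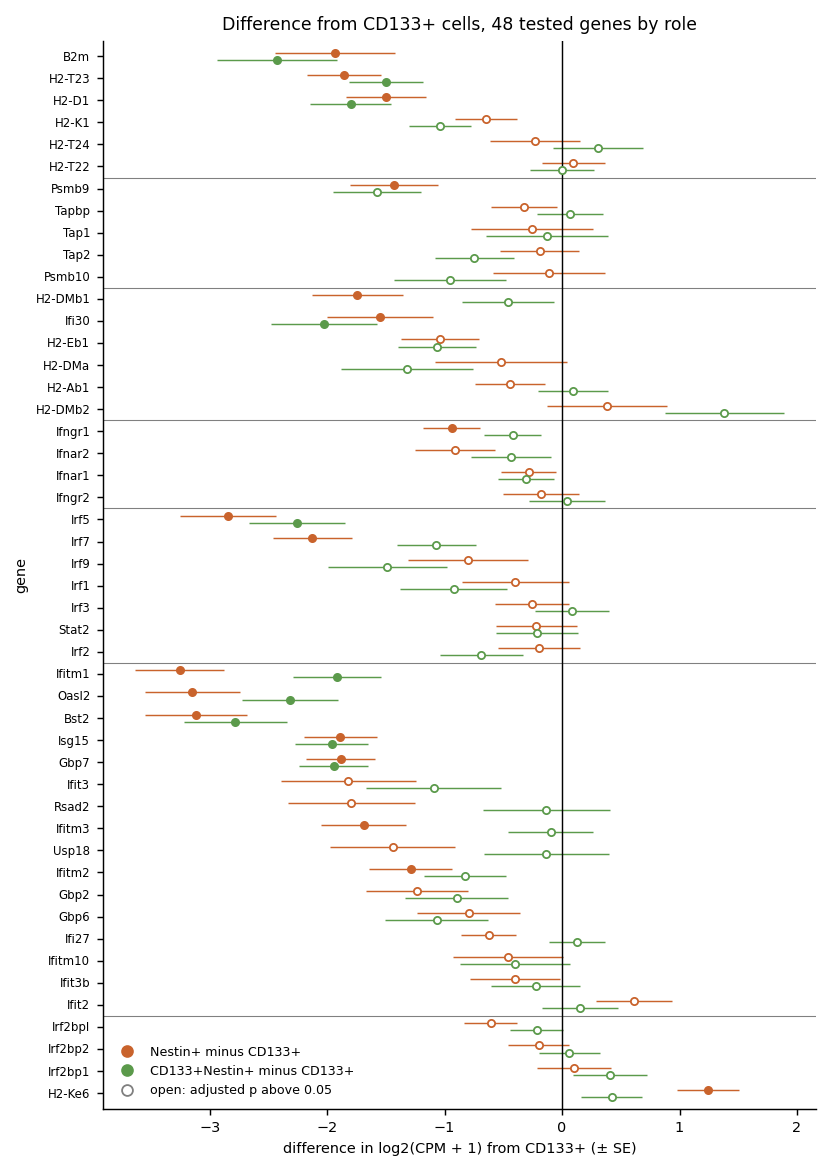
Difference from CD133+ cells in log2(CPM + 1) (horizontal axis, bars ± SE, n = 3 per group) of 48 of the 49 tested genes, grouped by role; orange is Nestin+ and green CD133+Nestin+, filled where the limma adjusted p was at or under 0.05. Orange points reach -3.26 (Ifitm1) and H2-Ke6 lies alone as a filled point to the right at 1.25; both colors subtract the same CD133+ libraries.

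CD133+Nestin+ cells, sorted as positive for both markers, also had less of the set than CD133+ cells. The genes that were lower were B2m, H2-D1, H2-T23, Ifi30, Irf5, Bst2, Oasl2, Isg15, Gbp7 and Ifitm1, 10 of 49 (20.4%), where 2.12% of all tested genes were lower. None was higher in limma's test, where 0.297% of all genes were; 1 of the 49 had an unadjusted p under 0.05 in that direction. The differences were -2.78 ± 0.44 for Bst2 (adjusted p = 0.00699), -2.43 ± 0.51 for B2m (0.0312), -2.32 ± 0.41 for Oasl2 (0.013), -2.25 ± 0.41 for Irf5 (0.0157) and -2.03 ± 0.45 for Ifi30 (0.0412). Isg15 differed by -1.96 ± 0.31 (adjusted p = 0.00717), Gbp7 by -1.94 ± 0.29 (0.00585), Ifitm1 by -1.92 ± 0.38 (0.0228), H2-D1 by -1.80 ± 0.34 (0.0193) and H2-T23 by -1.50 ± 0.32 (0.0318). By role these were 3 of 6 class I molecules, 0 of 5 peptide supply genes, 1 of 6 class II genes, 0 of 4 receptors, 1 of 8 transducers and factors and 5 of 16 effectors. The median was -0.687 over the 49 genes, -0.419 over all 55 without the filter and -0.0644 over all tested genes. In 18 genes (36.7%) every CD133+Nestin+ library lay below every CD133+ library, against 10.9% of all genes. In 2 genes, H2-DMb2 and H2-Ke6, every such library lay above (4.08%, all genes 6.56%). This comparison and that of Nestin+ use the same CD133+ libraries.

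The marker lists again moved alongside. The 13 microglial and macrophage markers summed to 85.0 to 475 CPM in CD133+Nestin+ libraries, 9.48% of the CD133+ mean, and all 13 were lower. The 5 endothelial markers summed to 27.0 to 44.6 CPM (5.86%), and all 5 were lower. Lower too were 5 of 7 mural and fibroblast markers (15.6% of the CD133+ sum), 4 of 5 red blood markers (8.22%) and 1 of 7 ependymal markers (76.3%), while 1 of 5 oligodendrocyte precursor markers and 1 of 8 progenitor markers, Nes, were higher. The direction of Nes again followed from the sort. The part of these cells in the differences was not tested. With the replicate block 13 genes were lower (26.5%, all genes 3.69%) and 0 higher (all genes 1.12%), the added ones being H2-K1 (adjusted p = 0.0147), Psmb9 (0.0213) and Ifitm2 (0.0496). The count of 10 was 0 without CD133+ replicate 3, with 15 of 48 tested genes at an unadjusted p under 0.05, 3 without CD133+ replicate 1, 4 without CD133+Nestin+ replicate 3 and 6 without CD133+ replicate 2. The calls of Bst2, Gbp7 and Oasl2 were lost without CD133+ replicate 3 alone (adjusted p = 0.0565, 0.0556 and 0.0778), and 6 others each without any 1 of 3 to 7 libraries (0.0516 to 0.181). Isg15 could not be tested without a CD133+ library, since it entered the test through those libraries alone. For these fits too, the share of all genes passing is not given. A pseudocount of 0.1 also ended the calls of H2-T23, Ifi30, Ifitm1, Irf5 and Oasl2, quantile normalization those of H2-T23 and Ifi30, median centring that of H2-T23, and no level filter or one of 5 CPM that of Ifi30. In a fit of the 6 libraries of these groups alone the calls of B2m, H2-D1, H2-T23, Ifi30, Ifitm1 and Irf5 ended.

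Between CD133+Nestin+ and Nestin+ cells 1 gene of the set differed. Ifitm3, with the levels given above, was higher in CD133+Nestin+ cells by 1.59 ± 0.36 (adjusted p = 0.0383), and its mean there was 91.9% of that in CD133+ cells. This was 2.04% of the 49 genes, where 2.87% of all tested genes were higher. None was lower, where 0.254% of all genes were, and 1 gene had an unadjusted p under 0.05 in that direction. With the replicate block the counts were again 1 higher (all genes 4.97%) and 0 lower (all genes 1.12%). In 11 genes (22.4%, all genes 11.1%) every CD133+Nestin+ library lay above every Nestin+ library, among them Irf7, Ifitm1, Oasl2, Usp18, Rsad2, Ifi27 and Ifngr1, and in Tap2 and H2-Ke6 every such library lay below (4.08%, all genes 6.21%). The median difference was 0.217 over the 49 genes and -0.0384 over all genes. In the same contrast 7 of 7 ependymal markers, 1 of 5 endothelial, 1 of 7 mural and fibroblast, 1 of 8 progenitor and 0 of 13 microglial markers were higher. Lower were 2 of 5 oligodendrocyte precursor markers and 1 of 7 mural and fibroblast markers, and the part of these cells was not tested. The Ifitm3 call ended without CD133+ replicate 1 or 3, any 1 Nestin+ library or CD133+Nestin+ replicate 1 or 3 (adjusted p = 0.05 to 0.15).

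The other genes of these pathways were read from a list of 71, of which 51 were in the table and tested. Compared with CD133+ cells, 14 were lower in Nestin+ cells (27.5%, all genes 9.42%) and none was higher by limma's test (all genes 2.45%), with 2 at an unadjusted p under 0.05 in that direction. With the replicate block 15 were lower (all genes 13.1%) and 1 higher (all genes 6.06%). The added genes were Cgas, a sensor of DNA in the cytosol (adjusted p = 0.0467), and, as the higher one, Canx. The lower genes for antigen handling were Ctss, the protease cathepsin S that trims the class II invariant chain (-4.63 ± 0.71, adjusted p = 0.00169), Fcgrt, the neonatal Fc receptor (-3.23 ± 0.30, 9.67e-05), the protease Lgmn (-1.85 ± 0.41, 0.0126) and Mr1, a class I-like molecule (-1.29 ± 0.30, 0.0167). Fcgrt was at 190, 154 and 176 CPM in CD133+, 19.2, 14.7 and 19.1 CPM in Nestin+ and 36.5, 16.5 and 31.3 CPM in CD133+Nestin+ libraries, and its calls against CD133+ remained without any 1 library, as did those of Ctss, Lgals3bp, Il10rb and Rtp4 in Nestin+ cells. The lower interferon-induced or sensing genes included Lgals3bp, Xaf1, Ddx60, Myd88, Ikbke, Dtx3l, Il10rb, Rtp4 and Cmpk2, with differences from -3.0 ± 0.49 (Lgals3bp) to -1.12 ± 0.33 (Cmpk2). The call of Cmpk2 (adjusted p = 0.0475) ended without any 1 of 6 libraries (0.0613 to 0.212) and under 5 other settings (0.0509 to 0.0657), and those of Xaf1, Ddx60, Myd88, Ikbke, Dtx3l, Lgmn and Mr1 without any 1 of 1 to 5 libraries. In CD133+Nestin+ cells 7 were lower than in CD133+ cells (13.7%, all genes 2.12%), among them Fcgrt, Ctss, Myd88, Ddx60, Dtx3l and Lgals3bp, and none was higher (all genes 0.297%), with 0 at an unadjusted p under 0.05. With the replicate block 9 were lower (all genes 3.69%), the added ones being Il10rb (adjusted p = 0.0158) and Lgmn (0.00343). Without the block the call of Lgals3bp (0.0484) ended without any 1 of 8 libraries (0.0529 to 0.219) and under 6 other settings (0.053 to 0.0841), and those of Ctss, Myd88, Ddx60 and Dtx3l without any 1 of 4 to 6 libraries.

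The receptor-bound kinases did not pass. Jak1 was at 83.7 to 121 CPM in CD133+, 88.3 to 130 CPM in Nestin+ and 99.5 to 122 CPM in CD133+Nestin+ libraries, and Jak2 and Tyk2 overlapped in the same way. The standard proteasome subunits Psmb5, Psmb6 and Psmb7, which the immunoproteasome subunits replace, and the chaperones Calr and Pdia3 of class I loading did not pass either. Canx, the chaperone that holds new class I chains, was at 826, 554 and 565 CPM in CD133+, 1292, 827 and 1078 CPM in Nestin+ and 848, 774 and 757 CPM in CD133+Nestin+ libraries. All Nestin+ libraries lay above all CD133+ libraries, narrowly at 827 against 826 CPM, by +0.72 ± 0.29 (adjusted p = 0.157; 0.0242 with the replicate block). Between CD133+Nestin+ and Nestin+ cells none of the 51 passed limma's test (7 at an unadjusted p under 0.05); with the replicate block Ikbke, a kinase that acts on IRF3 and IRF7, was higher in CD133+Nestin+ cells (adjusted p = 0.0225). Its values were 12.1, 11.1 and 13.4 CPM there and 3.13, 5.70 and 2.65 CPM in Nestin+ libraries, with no overlap. The count of 14 in Nestin+ cells was 7 without CD133+ replicate 2, 8 without CD133+ replicate 3 and 9 without Nestin+ replicate 3. The count of 7 in CD133+Nestin+ cells was 1 to 3 without CD133+ replicate 3, 1 or 2, CD133+Nestin+ replicate 3 or Nestin+ replicate 2.

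The authors' deposited table of comparisons listed the same 55 genes. At a false discovery rate of 0.05 or less, the authors' deposited table had 15 of them for Nestin+ to CD133+, 14 with a ratio below 1 and 1 above (27.3%, all genes 9.07%). For CD133+ to CD133+Nestin+ the authors' deposited table had 4, all with a ratio above 1 (7.27%, all genes 0.955%), and for Nestin+ to CD133+Nestin+ it had 1, with a ratio below 1 (1.82%, all genes 2.59%). In the authors' deposited table the ratio of Nestin+ to CD133+ was 0.0286 for Ifitm1, 0.0737 for Bst2, 0.270 for B2m and 2.61 for H2-Ke6.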

How the data were processed

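Libraries of total RNA from the sorted cells were run on an Illumina HiSeq, per the labels' protocols. Tools listed in the submitters' processing notes, without a role, were STAR 2.5.3a, Partek 8.0, bcl2fastq and limma, and the build was mm10. The rule for counting reads per gene, its annotation and its use of strand are not given in the sources used here. The authors deposited normalized values for 18329 genes, taken here as CPM with an offset of 0.0001, a unit inferred from the values. Together these genes took 65.9% to 87.6% of each CPM total. Low values were whole multiples of 1 read (tolerance 0.02 reads) in 42.8% to 58.7% of cases, so no count test was run. The authors' second deposited table gave p-values with false discovery rates and a ratio per comparison. Its fold-change score, and its signal column of summed values, as deposited by the authors, were not printed.

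Genes that reached 1 CPM in 3 or more libraries were fitted with limma 3.58.1 (R 4.3.3) on log2(CPM + 1), all 9 libraries in 1 fit on group, with trended and robust empirical Bayes and Benjamini-Hochberg adjustment over 16143 genes at 0.05. The script was tested on simulated data. Same-numbered libraries of different groups deviated together (r = 0.204 to 0.73 over 9 pairs, different numbers -0.527 to 0.314 over 18). Deviations were taken from each group's mean, which ties these r values to each other, and their ranges overlapped. The numbers were taken, from the data, to pair the libraries in the fits with the replicate block. The reported fit, and the fits without 1 library, did not use the pairing except where the block is named. Values with the replicate block are given where they changed a call, and for B2m and H2-D1. Alternatives covered the block, pseudocount, filter, scaling, prior, 6 libraries alone and each library left out. Genes, roles, pathway list and marker lists were chosen with earlier results of these data known. Values in every library are given for up to 8 passing genes of smallest p per comparison, other passing genes and a list of central genes of each role, other genes by counts and ranges. A gene of the set and a pathway gene count in the totals but are not reported here. Positions are from GENCODE M21 and promoters from RefSeq, both of GRCm38. Shared 50-base words were counted over GENCODE transcripts on either strand.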

Additional observations from a re-analysis of the deposited data

How the results depend on the processing

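No call of the set reversed its direction under any alternative run. The numbers of passing genes are given in the order Nestin+ against CD133+, CD133+Nestin+ against CD133+, CD133+Nestin+ against Nestin+ and the F test, where the reported fit gave 17, 10, 1 and 15; for pathway genes the 3 comparisons gave 14, 7 and 0. With the replicate block the numbers were 19, 13, 1 and 19, and 16, 9 and 1 for pathway genes, and the block ended no call named here. A pseudocount of 0.1 gave 5 for CD133+Nestin+ against CD133+ and 2 for CD133+Nestin+ against Nestin+, with 4 pathway genes in the former. The last comparison gave 0 without the level filter, without trend and robust prior (there with 1 pathway gene) and in 6 libraries alone, each with 8 at an unadjusted p under 0.05; a filter of 5 CPM gave 1 pathway gene there. In 6 libraries alone 4 genes and 2 pathway genes passed for CD133+Nestin+ against CD133+; no F test was run there. The replicate block without CD133+Nestin+ replicate 2, chosen after seeing the data, gave 29, 16, 3 and 26, and 21, 12 and 5 for pathway genes. Leaving out each library gave 9 to 24, 0 to 10, 0 to 1 and 8 to 21, and 7 to 18, 1 to 7 and 0 to 1 for pathway genes. Median centring moved the median of all genes by 0.135 for Nestin+ and 0.128 for CD133+Nestin+ against CD133+, quantile normalization by 0.147 and 0.119; no passing gene changed sign, and the median of the set was -0.595 and -0.61 for Nestin+ and -0.559 and -0.575 for CD133+Nestin+. Genes without a call that changed sign were Psmb10 in the Nestin+ comparison and, in the other, H2-T22 and Tap1 under both and Ifitm3, Ifit3b or Rsad2 under 1. Apart from the replicate block, the share of all genes passing under each setting is not given. The counts thus cannot show whether the excess of the set over all genes changed. The cause of the differences between settings was not tested. With 3 libraries a group and no counts, genes near 1 CPM rest on few reads, and libraries cannot be assigned to animals.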
